A study of Homo sapiens with 16 samples.

Results

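The RNA of SKNO-1 cells exposed for 24 h to all-trans retinoic acid (ATRA) and Corin together was compared with that of SKNO-1 cells exposed to the solvent DMSO, over all genes of the deposited count table. The comparison holds 4 libraries, 2 with both agents and 2 with DMSO, of the 16 RNA libraries listed for the series, of which the 8 of SKNO-1 were fitted. SKNO-1 is an established acute myeloid leukaemia line that carries the RUNX1-RUNX1T1 fusion and was grown with GM-CSF, a cytokine that drives myeloid growth, in every group. The treated cells received ATRA at 0.1 µM and Corin at 0.1 µM, and the labels name no genetic change to the line. Another 2 libraries with ATRA alone at 0.1 µM and 2 with Corin alone at 0.1 µM, both for 24 h, were fitted with these 4 and serve below to show what each agent did by itself. Nothing in the labels says that the 2 libraries of a group came from separate cultures. The p-values thus measure only the spread between replicate libraries, pooled over the 8 fitted, which may be technical. The libraries are bulk RNA of cultured cells, in which fewer cells of a kind and less RNA per cell cannot be told apart.

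ATRA is the natural ligand of the retinoic acid receptors, which sit on DNA as heterodimers with RXR and exchange corepressors for coactivators when ligand binds. In acute promyelocytic leukaemia the drug releases a block on granulocyte maturation. Corin is a synthetic dual inhibitor of the CoREST corepressor complex, which joins the histone H3 lysine demethylase LSD1 (KDM1A) to the deacetylases HDAC1 and HDAC2. This complex is brought to DNA in blood cells by the repressors GFI1 and GFI1B. Loss of LSD1 activity in myeloid leukaemia cells is known to raise monocyte and granulocyte surface genes such as ITGAM (CD11b) and CD86.

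The authors' estimated counts summed to between 32.9 and 36.9 M in these 4 libraries, and 17479 genes had enough counts to be tested. The 2 libraries with both agents were alike, whereas the DMSO libraries stood apart from each other. Over 9320 well-expressed genes the SD of the log2 difference between replicates was 0.359 in DMSO and 0.108 to 0.133 in the other groups. The DMSO difference followed the GC content of the genes (Pearson r = 0.796 across genes, which are not independent replicates). The identity gene RUNX1T1 stood at 91.99 and 125 CPM (counts scaled to the library total) in DMSO and 127 and 109 with both agents, and HOXA9 had 0 counts in all 8 SKNO-1 libraries. The number of genes detected was 22464 and 22572 in the DMSO libraries and 24494 and 24447 with both agents. The share of counts from mitochondrial genes was 1.51 and 2.06% in DMSO and 2.50 and 2.27% with both agents. Their part in the results was not tested.

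Both agents together moved a large share of the transcriptome, with rises that were far larger than falls. Of the 17479 genes tested, 46.7% were called changed (edgeR's quasi-likelihood test, Benjamini-Hochberg adjusted p under 0.05), 24.7% higher and 22.0% lower. The median log2 fold change over all genes tested was 0.055. Changes of 1 or more in log2 fold change were seen in 2622 genes that rose and 313 that fell. At a threshold of 3 on that scale the counts were 715 and 16. The direction differed with level. Of the 3939 genes with a mean under 1 CPM over the 8 SKNO-1 libraries, 30.6% rose and 2.2% fell. Of the 2061 genes at 100 CPM or more, 12% rose and 50.8% fell. Of 2737 long noncoding RNAs 810 were higher and 127 lower (29.6 and 4.6%), with a median log2 fold change of 0.45. These shares are near those of all genes under 1 CPM given above. The long noncoding RNAs were not matched by level to other genes, and the part of level was not tested. Protein-coding genes split into 3251 higher and 3613 lower of 12902. The calls also differed in base composition: the median GC content was 50.7% among genes that rose, 43.3% among genes that fell and 47.3% among all tested. After a trend with GC content was removed from each library, 66.0% of the calls were rises, against 52.8% without that step. The median over all genes then shifted to 0.167, so the sign of a small log2 change can depend on this step. Its part in the split of the calls was not tested.

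**Figure D1:**
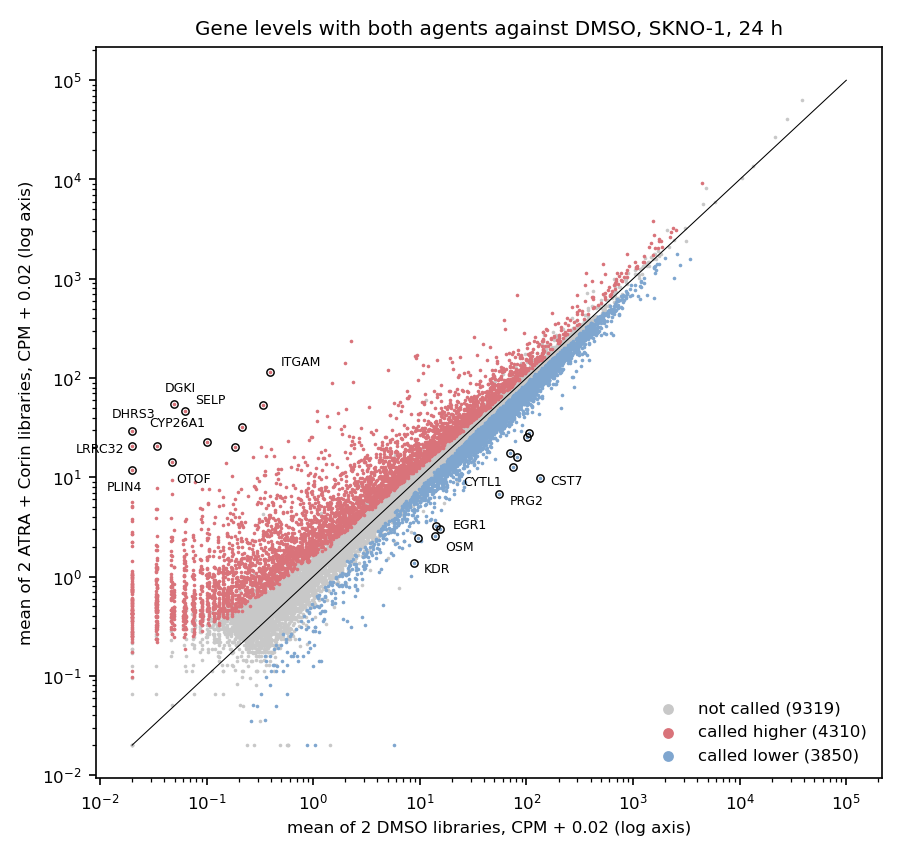
Mean level of each of the 17479 genes in the 2 DMSO libraries (x axis) and the 2 libraries with ATRA and Corin (y axis), in CPM with 0.02 added, both on log axes. Red points are the 4310 genes called higher and blue points the 3850 called lower; open circles mark the 24 genes with the largest changes among those that averaged 5 CPM or more in these libraries, a minimum that keeps every fall among them above that level in DMSO.

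The 12 largest rises, taken among genes that averaged 5 CPM or more in these libraries, were all of genes below 1 CPM in DMSO, and 3 of them had 0 counts there. DHRS3, a retinaldehyde reductase that lowers retinoic acid production (ENSG00000162496.9, chromosome 1, 12567910 to 12618210, minus strand), went from 0 counts in both DMSO libraries to 29.1 and 29.6 CPM. ATRA alone gave 3.18 and 3.702 CPM and Corin alone 0.114 and 0.0881. The difference from DMSO was at least 709.9-fold, taking 3 counts over the 2 DMSO libraries as the floor (adjusted p = 9.84e-07). LRRC32, the cell-surface anchor of latent TGF-beta known as GARP (ENSG00000137507.11, chromosome 11, 76657524 to 76670747, minus strand), stood at 0 counts in DMSO and 19.6 and 21.2 CPM with both agents, at least 494-fold higher. PLIN4 (ENSG00000167676.4, chromosome 19, 4502192 to 4518486, minus strand), a lipid droplet coat protein, was at 0 counts in DMSO as well. It stood at 0.18 and 0.108 CPM with ATRA, at 0.3704 and 0.176 with Corin and at 12.1 and 11.4 with both, at least 284-fold above DMSO. In all 3 the libraries with both agents lay above those of either agent alone, and both tests passed.

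4 more of these rises began from 1 to 3 counts over the DMSO pair. DGKI, a diacylglycerol kinase, had 2 and 0 counts in DMSO and 1723 and 1839 with both agents, a 1975-fold ratio after scaling (95% counting interval 546 to 16320). CYP26A1, the cytochrome P450 that clears retinoic acid, had 1 and 0 and 636 and 724 counts, a 1509-fold ratio after scaling (95% counting interval 270.3 to 59630). SELP, the adhesion receptor P-selectin, had 2 and 1 and 1543 and 1520, a 1132-fold ratio after scaling (95% counting interval 387 to 5495). OTOF, a calcium sensor of membrane fusion, had 1 and 1 and 432 and 504, a 519-fold ratio after scaling (95% counting interval 143 to 4293). The counts with both agents were tight between replicates in each of these genes, and the few DMSO counts set the width of the intervals. SELP stood at 3.69 and 3.65 CPM with ATRA and 3.08 and 2.44 with Corin against 48.1 and 45.6 with both, whereas OTOF stood at 13.96 and 14.7 with Corin alone and 13.5 and 15.1 with both. The OTOF libraries of those groups overlapped (standard error of the log2 difference 0.19, adjusted p = 0.993).

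The other 5 of the 12 were measurable in DMSO. ITGAM, the CD11b chain of the complement receptor CR3 (ENSG00000169896.18, chromosome 16, 31259967 to 31332892, plus strand), stood at 0.434 and 0.316 CPM in DMSO, 0.9599 and 0.865 with ATRA, 37.1 and 33.9 with Corin and 116 and 114 with both agents. Its log2 fold change over DMSO was 8.25 ± 0.14 (SE, adjusted p = 5.7e-08), and it was also above Corin alone by 1.69 ± 0.09 (adjusted p = 2.75e-05). LRP1, an endocytic receptor of macrophages, rose from 0.0289 and 0.132 to 24.4 and 20.7 CPM (log2 fold change 8.03 ± 0.33, and 7.38 without DMSO replicate 1 and 9.45 without replicate 2). FCGR2B, the inhibitory Fc receptor, rose from 0.289 and 0.342 to 52.7 and 54.2 CPM. Corin alone gave more FCGR2B, 80.95 and 75.98, and both agents differed from Corin by -0.55 ± 0.08 on the log2 scale (adjusted p = 0.00426). FCGR2B has near-identical paralogs, so its counts are uncertain. HIC1, a transcriptional repressor, rose from 0.231 and 0.158 to 30.5 and 32.9 CPM. ATRA alone gave 28.1 and 32.4 for HIC1, and the difference from both agents did not pass the test (log2 difference 0.07 ± 0.11, adjusted p = 0.657). THBD, the anticoagulant receptor thrombomodulin that also marks monocytes and some dendritic cells, rose from 0.174 and 0.158 to 20.3 and 20.3 CPM, against 2.19 and 2.32 with ATRA and 0.456 and 0.353 with Corin. Of the 12 genes 9 were higher with both than with Corin (4.82% of all genes tested were) and 11 than with ATRA (23.0%). The libraries with both agents chose these genes and enter these comparisons too, so nothing is read from the shares.

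**Figure D2:**
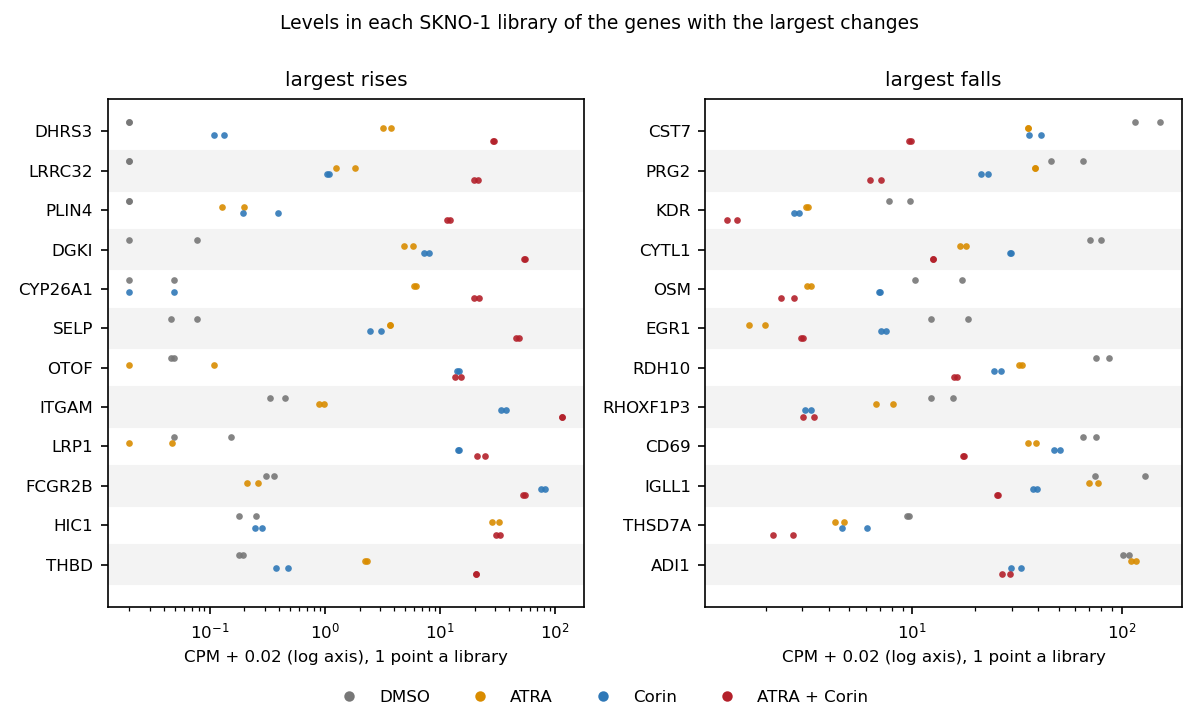
Level of the 12 genes with the largest rises (left) and the 12 with the largest falls (right) in each of the 8 SKNO-1 libraries, in CPM with 0.02 added on a log axis, with 1 point a library and treatments by colour. With both agents ITGAM sits at 116 and 114 CPM against 0.434 and 0.316 in DMSO, and CST7 at 9.82 and 9.63 against 153 and 116.

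The 12 largest falls, taken with the same minimum of 5 CPM, which sets that they began above it in DMSO, were smaller than the rises. CST7 (ENSG00000077984.6, chromosome 20, 24949269 to 24959928, plus strand) encodes cystatin F, a cathepsin inhibitor of granule compartments. CST7 stood at 153 and 116 CPM in DMSO, 35.9 and 35.7 with ATRA, 41.2 and 35.96 with Corin and 9.82 and 9.63 with both agents, a log2 fold change of -3.79 ± 0.15 (SE, adjusted p = 1.7e-06). PRG2, the eosinophil major basic protein (ENSG00000186652.10, chromosome 11, 57386780 to 57390650, minus strand), fell from 65.5 and 46 to 6.26 and 7.11 CPM. KDR, the VEGF receptor 2, fell from 7.75 and 9.72 to 1.43 and 1.29 CPM. CYTL1, a small secreted protein of CD34+ cells, fell from 70.4 and 79.96 to 12.6 and 12.6. In these 4 genes each single agent gave levels below both DMSO libraries and above both libraries with both agents.

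OSM, a cytokine of the IL-6 family, fell from 17.2 and 10.3 to 2.34 and 2.7 CPM. EGR1, an immediate-early transcription factor, fell from 12.3 and 18.6 to 2.99 and 2.94 CPM. EGR1 was lower still with ATRA alone, at 1.65 and 1.97 CPM, and both agents stood above ATRA by 0.71 ± 0.23 on the log2 scale (adjusted p = 0.0397). RDH10, the retinol dehydrogenase that opens the route to retinoic acid, fell from 75.1 and 86.9 to 16.4 and 15.8 CPM (log2 fold change -2.33 ± 0.09). CD69, an early activation antigen, fell from 65.2 and 75.8 to 17.4 and 17.7 CPM. IGLL1, a surrogate light chain of B cell precursors, fell from 129 and 74.2 to 25.3 and 25.8 CPM. THSD7A, a membrane protein with thrombospondin repeats, fell from 9.66 and 9.399 to 2.15 and 2.67 CPM. ADI1, an enzyme of methionine salvage, fell from 108 and 102 to 26.8 and 29.4 CPM. It stood at 111 and 117 with ATRA and 33.2 and 29.7 with Corin, and the difference from Corin did not pass the test (log2 difference -0.16 ± 0.08, adjusted p = 0.236). The pseudogene RHOXF1P3 completes the 12, from 15.7 and 12.3 to 2.99 and 3.39 CPM, and shares sequence with its parent genes, so its counts are uncertain. 9 of the 12 were lower with both agents than with Corin alone (5.60% of all genes tested were) and 10 than with ATRA alone (21.8%), and again the same libraries chose the genes.

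Gene lists are described next, each count of rises or falls with its range over the alternative settings in brackets. The filter on low counts took all 8 libraries, so a gene near 0 in DMSO was tested only where another group expressed it. This favours rises among the genes tested, in the lists and in the shares by level. With no such filter more members of some lists were tested, so a range can reach above the number given as tested. Then 7 of 9 leukocyte immunoglobulin-like receptors rose, and 10 of 13 class II genes. In that setting 20 of 28 monocyte genes rose, and 6 of 11 T and NK genes. The background is the 24.7% of all genes called higher and the 22.0% called lower, and it differs with level. Rises made up 30.6 and 36.5% of genes under 1 CPM and from 1 to 10 CPM, and falls 34.3 and 50.8% of genes from 10 to 100 CPM and above. Without DMSO replicate 1 the number of rises moved by over 1.5 times in 8 of the 32 lists and the number of falls in 4, and without DMSO replicate 2 in 3 and 9. Leaving out the first or the second library with both agents moved the rises in 6 and 5 lists and the falls in 4 and 6. With the GC trend removed rises moved so in 5 lists and falls in 7.

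The retinoic acid genes rose as a group. Of the 21 listed genes 16 had enough counts, and 12 rose (9 to 14), 1 fell (1 to 2) and 3 did not pass the test. The share of all genes called higher was 24.7%, and the median log2 fold change was 1.09 in the list and 0.055 over all genes. Among the untested, STRA6 had 0 counts in all 8 SKNO-1 libraries, and CYP26B1, CYP26C1 and LRAT had at most 10 counts over the 2 libraries with both agents. The enzymes that remove retinoic acid or its precursor rose, as described above for CYP26A1 and DHRS3, and RDH10, which makes the precursor, fell. Of the receptors, RARB, RARG and RARA rose, RXRA was called with an adjusted p near the threshold, and RXRB did not pass the test. RARB (ENSG00000077092.19, chromosome 3, 24687887 to 25597932, plus strand) had 0 counts in the DMSO and the Corin libraries. It stood at 0.54 and 0.649 CPM with ATRA and at 2.34 and 2.1 with both agents, at least 53.6-fold above DMSO (adjusted p = 0.000143). RARG went from 0.8097 and 0.869 in DMSO and 1.08 and 1.24 with ATRA to 7.42 and 7.38 CPM with both agents, and Corin alone gave 5.13 and 6.32. RARA, the main receptor of myeloid cells, stood at 9.75 and 6.398 CPM in DMSO and 20.4 and 18.5 with both agents, above all libraries of either single agent (log2 fold change over DMSO 1.27 ± 0.20, adjusted p = 0.00135). RXRA went from 6.94 and 5.08 to 8.38 and 8.101 CPM (adjusted p = 0.0492). RXRB was at 24.6 and 18.9 in DMSO and 23.2 and 24.96 with both agents, and the groups overlapped.

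The promoter of RARB is the textbook site of a retinoic acid response element, a direct repeat of a receptor half-site with 5 bases between the copies (DR5), and it is printed for that reason. The promoters of ITGAM and SELP are printed because, of the 9 of the 12 largest rises with a promoter in the table, these 2 hold the core that RUNX1 binds, and the fusion protein keeps the DNA-binding domain of RUNX1. Sequences are 250 bases before to 50 after the start in RefSeq, build GRCh38.p14, 5′ to 3′ along the gene, with the DR5 of RARB and the RUNX core TGTGGT of the others in capitals.
RARB (chr3:25428013-25428312, plus strand): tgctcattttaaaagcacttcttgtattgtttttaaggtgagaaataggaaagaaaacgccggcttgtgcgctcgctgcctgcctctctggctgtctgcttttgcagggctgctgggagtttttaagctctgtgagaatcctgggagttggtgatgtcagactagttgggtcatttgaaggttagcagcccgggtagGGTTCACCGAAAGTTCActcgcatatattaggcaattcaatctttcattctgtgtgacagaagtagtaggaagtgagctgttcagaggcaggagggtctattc
ITGAM (chr16:31259725-31260024, plus strand): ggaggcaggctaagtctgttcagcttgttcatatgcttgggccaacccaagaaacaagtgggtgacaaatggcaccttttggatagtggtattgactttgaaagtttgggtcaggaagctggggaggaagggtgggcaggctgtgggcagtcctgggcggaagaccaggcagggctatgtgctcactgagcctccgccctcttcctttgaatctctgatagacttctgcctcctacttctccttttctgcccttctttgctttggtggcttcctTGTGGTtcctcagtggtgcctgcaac
SELP (chr1:169630075-169630374, minus strand): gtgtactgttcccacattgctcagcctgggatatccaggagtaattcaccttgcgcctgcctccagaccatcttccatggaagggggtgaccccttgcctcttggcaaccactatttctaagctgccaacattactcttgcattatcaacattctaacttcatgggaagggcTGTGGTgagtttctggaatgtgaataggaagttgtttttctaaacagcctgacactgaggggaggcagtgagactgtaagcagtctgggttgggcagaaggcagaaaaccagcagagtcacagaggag

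The DR5 of RARB lies 53 to 37 bases before the start. The search took 2 half-sites in the same direction with 5 bases between them, on both strands, each half-site being AGGTCA, where G was allowed at the first base and T at the third. Of the 42 genes looked up, the retinoic acid list and the 24 largest changes, 29 had a promoter in the table and 1 of them, RARB, held such a repeat. It occurred in 0.0806% of all 27305 promoters of that length. The windows of CYP26A1 and DHRS3 held none, which says only that these letters are not in those 300 bases. The RUNX core lies 25 to 30 bases after the start in ITGAM and 78 to 73 before it in SELP. Promoters of KDR and IGLL1, among the largest falls, hold this core too and are not printed. TGTGGT on either strand was in 13.1% of all promoters, in 9.76% of those of genes tested, in 10.2% of those with a log2 rise of 1 or more and in 12.3% of those that fell by as much. These are matches of letters, and nothing was measured here at the sites.

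The proteins that carry retinoic acid in the cytoplasm stayed at low levels. CRABP2 had 1 count in all in DMSO and 45 with both agents, a 49.9-fold ratio after scaling (95% counting interval 8.51 to 2015), and CRABP1 rose from 1.07 and 0.764 to 1.65 and 1.8 CPM. Among target genes known from promyelocytic cells, TGM2, the tissue transglutaminase, rose from 2.69 and 2.11 to 20.3 and 22.5 CPM, with 14.7 and 15.8 in ATRA and 6.81 and 7.903 in Corin. PRAM1, an adaptor first found as a target of PML-RARA, rose from 0.607 and 0.685 to 17.05 and 15.2 CPM, with 3.54 and 4.16 in ATRA and 3.42 and 3.94 in Corin. This was a log2 fold change of 4.63 ± 0.18 over DMSO (adjusted p = 1.94e-06). CD38, an ectoenzyme induced by retinoids, rose from 216 and 242 to 296 and 291 CPM. ATRA alone gave 562 and 543 for CD38, and both agents differed from ATRA by -0.91 ± 0.07 on the log2 scale (adjusted p = 3.65e-05). UBA7, which activates ISG15, rose from 27.5 and 16.5 to 38.4 and 42.6 CPM. CEBPE, a factor of late granulocyte maturation, was at 16.6 and 8.53 CPM in DMSO and 13.99 and 13.8 with both agents, inside the range of the DMSO pair. The ligand-dependent corepressor NRIP1 was at 178 and 209 in DMSO and 183 and 172 with both, and neither gene passed the test. The call was lost under 13 of 16 alternative settings for RXRA, 8 for CRABP1 and 2 for UBA7.

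**Figure D3:**
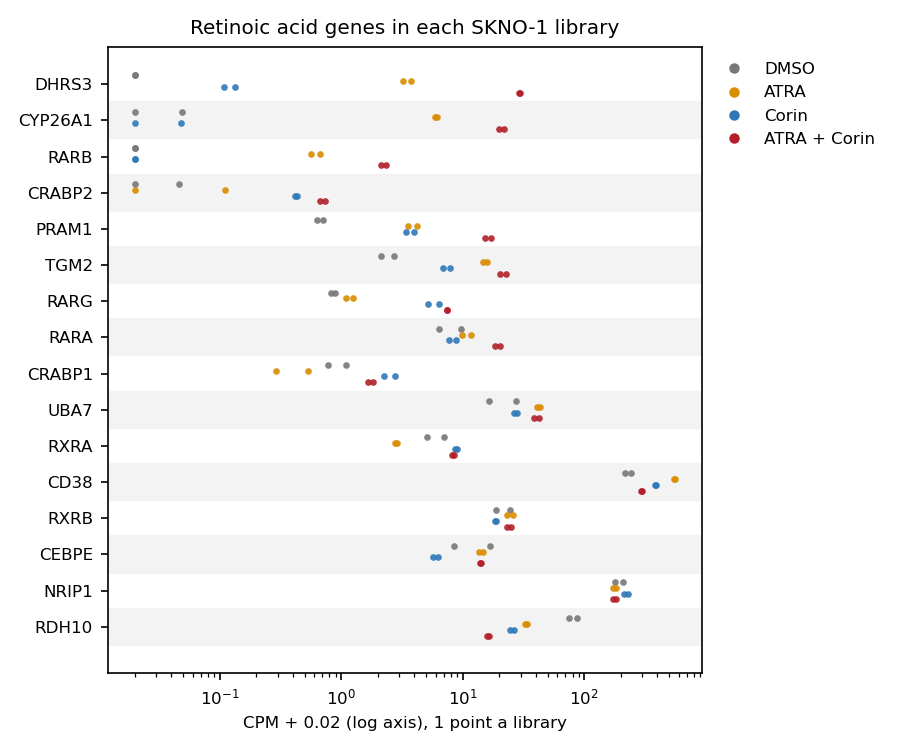
Level of the 16 retinoic acid genes tested in each of the 8 SKNO-1 libraries, in CPM with 0.02 added on a log axis, ordered by log2 fold change with both agents and coloured by treatment. RARB and CYP26A1 are at or near 0 in the DMSO and Corin libraries and highest with both agents, while CD38 is highest with ATRA alone.

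The genes of the CoREST complex and its partners changed little as a group: of 23 tested, 5 rose (4 to 9), 6 fell (2 to 11) and 12 did not pass the test, with a median of -0.03. The enzymes that Corin inhibits stayed expressed. KDM1A, the LSD1 demethylase, went from 269 and 267 to 223 and 221 CPM (log2 fold change -0.27 ± 0.05, adjusted p = 0.00316). RCOR1, the scaffold, fell from 110 and 131 to 95.6 and 96.3 CPM. HDAC2, a deacetylase subunit, fell from 169 and 190 to 150 and 149 CPM. HDAC1 stood at 128 and 125 in DMSO and 132 and 132 with both agents and did not pass the test. GFI1, the repressor that recruits the complex in myeloid cells, stood at 370.3 and 371 CPM in DMSO and 385 and 387 with both agents and did not pass. GFI1B, its counterpart of erythroid and megakaryocyte cells, rose from 0.116 and 0 to 8.54 and 9.36 CPM. GFI1B had 4 and 0 counts in DMSO, and its log2 fold change of 7.25 ± 0.47 (adjusted p = 1.85e-05) was 6.24 without DMSO replicate 2, while without replicate 1 it has no DMSO count to rest on. GFI1B was at 4.27 and 3.85 under Corin alone. ZNF217, another DNA-binding partner, rose from 70.9 and 76.8 to 175 and 172 CPM. SNAI1, a recruiter in epithelial cells, rose from 0.145 and 0.263 to 1.71 and 1.29 CPM. REST, which silences neuronal genes through CoREST, fell from 174 and 232 to 137 and 134 CPM (log2 fold change -0.58 ± 0.12). HDAC3, a deacetylase of other corepressors, fell from 78.6 and 76.1 to 64.4 and 62.7 CPM. ZMYM3, a CoREST-associated protein, fell from 76.5 and 70.96 to 61.1 and 61.4 CPM. PHF21A, a complex member, rose from 19.1 and 21.5 to 26.5 and 24.1 CPM. After the GC trend was removed 9 of the CoREST list rose and 4 fell. A call was lost under 9 of 16 alternative settings for PHF21A, 5 for RCOR1, 5 for HDAC2, 3 for ZMYM3, 2 for KDM1A and 2 for HDAC3.

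Monocyte and macrophage genes rose broadly. Of 32 listed genes 23 could be tested, and 20 rose (19 to 21), 1 fell (0 to 1) and 2 did not pass the test, against 24.7% of all genes called higher. Their median log2 fold change was 3.94, or 3.58 with the 3 genes at 0 counts in DMSO held at their lower bounds. The summed level of the list went from 277 to 279.6 CPM in the DMSO libraries to 964 to 992 with both agents. LYZ, lysozyme, had the highest level per length of the list, at 205 and 222 TPM with both agents. It rose from 59.5 and 64.2 to 389.5 and 375 CPM (log2 fold change 2.63 ± 0.07, adjusted p = 3.86e-07). Surface receptors of mononuclear phagocytes rose from near 0. CSF1R, the receptor of M-CSF, went from 0.318 and 0.342 to 10.6 and 10.2 CPM (log2 fold change 4.96 ± 0.32), with 0.78 and 1.49 in ATRA and 4.103 and 3.14 in Corin. ITGAX, the CD11c integrin chain, went from 0.318 and 0.369 to 17.2 and 15.8. VSIG4, a complement receptor of resident macrophages, rose from 2.08 and 1.92 to 47.4 and 49.3 CPM. CCR2, the chemokine receptor of classical monocytes, had 1 count in the DMSO pair and 514 with both agents, a 570.1-fold ratio after scaling (95% counting interval 102 to 22560). CD68, a lysosomal glycoprotein of phagocytes, rose from 6.65 and 4.77 to 56.4 and 56.02 CPM.

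The costimulatory ligand CD86, a standard readout of LSD1 inhibition, rose from 0.925 and 0.974 to 24.9 and 25.7 CPM (log2 fold change 4.73 ± 0.14). CD86 stood at 0.15 and 0.108 with ATRA and 46.8 and 39.99 with Corin alone, and both agents differed from Corin by -0.78 ± 0.11 (adjusted p = 0.0038). VCAN, a matrix proteoglycan of monocytes, showed the same order, with 1.24 and 1.11 in DMSO, 18.7 and 17.4 with both agents and 49.6 and 44.1 with Corin (log2 difference from Corin -1.38 ± 0.12). MNDA, a nuclear antigen of myeloid cells, rose from 5.18 and 5.82 to 31.7 and 28.4 CPM. MRC1, the mannose receptor, rose from 1.59 and 1.82 to 4.301 and 4.47 CPM. C5AR1, the C5a receptor, rose from 0.665 and 0.316 to 2.56 and 2.64 CPM. CX3CR1, the fractalkine receptor, rose from 0.145 and 0.0527 to 1.37 and 1.02 CPM. In each of these 4 genes the treated libraries lay above both DMSO libraries. Of the activating Fc receptors already expressed in DMSO, FCGR2A rose from 88.3 and 86.8 to 136 and 132 CPM and FCGR1A from 33.5 and 28.4 to 39.02 and 40.4. FCGR3A, CD16, had 2 counts in DMSO and 61 with both agents, a 33.8-fold ratio after scaling (95% counting interval 8.97 to 286). The Fc receptors have close paralogs, so the split of counts among them is uncertain. Markers of mature monocytes stayed low. CD14, the endotoxin coreceptor, had 0 counts in DMSO and 0.8103 and 0.8101 CPM with both agents, at least 19.6-fold higher. CYBB, the catalytic oxidase subunit, was at 0.436 and 0.3901 CPM and LILRB2, an inhibitory receptor, at 0.966 and 0.9901, both from 0 counts in DMSO. S100A12, FCN1 and MARCO had 0 counts in all 8 SKNO-1 libraries, and S100A8 and S100A9 had 5 and 4 counts over the DMSO pair and 4 and 4 with both agents. TLR2 was the member that fell, from 25.5 and 28.4 to 20.5 and 21.1 CPM, and TLR4, the endotoxin receptor, at 50.1 and 53.5 in DMSO and 61.1 and 55.2 with both agents, did not pass the test. Against ATRA alone 21 of the 23 were higher with both agents and 2 lower, where 23.0 and 21.8% of all genes were. Against Corin alone 10 were higher and 4 lower, where 4.82 and 5.60% of all genes were. Counts of a list against a single agent were not repeated under the alternative settings. Significance was lost under 5 of 16 alternative settings for TLR2 and 3 for FCGR1A.

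**Figure D4:**
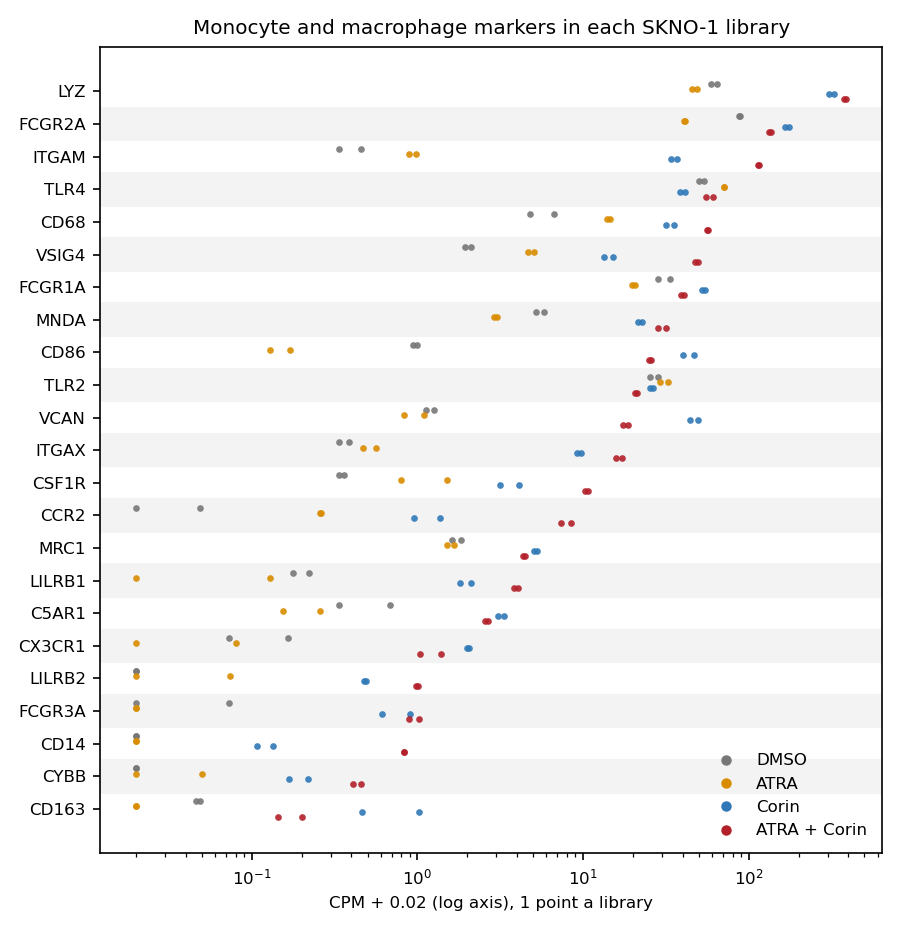
Level of the 23 monocyte and macrophage genes tested in each of the 8 SKNO-1 libraries, in CPM with 0.02 added on a log axis, ordered by their level with both agents. LYZ is at 389.5 and 375 CPM with both agents against 59.5 and 64.2 in DMSO, CD14 is at 0.8103 and 0.8101 CPM in the treated libraries, and CD86 and VCAN are highest with Corin alone.

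Receptors by which phagocytes sense opsonised and microbial material rose with these markers, where 24.7% of all genes were called higher and 22.0% lower. Of 24 Fc, complement and pattern receptor genes tested, 19 rose (16 to 20), 3 fell (2 to 3) and 2 did not pass the test (median 2.14). Beside ITGAM and FCGR2B, TLR8, which senses single-stranded RNA, rose from 0 and 0.105 to 2.03 and 1.98 CPM. LY96, the partner of TLR4, rose from 0.289 and 0.158 to 6.58 and 6.48 CPM. MYD88, the shared adaptor of these receptors, fell from 21.9 and 26.6 to 15.6 and 15.8 CPM. C3AR1, the receptor of C3a, fell from 19.1 and 18.96 to 13.4 and 13.1 CPM. The leukocyte immunoglobulin-like receptors, immune receptors of myeloid cells, rose in 5 of 6 tested (5 to 7) with a median of 4.21, and 1 did not pass the test. The summed level of this list did not rise, at 233 and 197 CPM in DMSO and 204 and 213 with both agents. LILRA5 had 1 count in DMSO and 309 with both agents, a 343-fold ratio after scaling (95% counting interval 61.1 to 13580). LILRB1, an inhibitory member, rose from 0.202 and 0.158 to 4.05 and 3.81 CPM. LILRA1 rose from 0.289 and 0.105 to 3.12 and 3.18 CPM. LILRA2 rose from 1.301 and 1.21 to 7.604 and 8.31 CPM. The log2 fold change of LILRA1, 4.0, was 4.85 without DMSO replicate 1 and 3.44 without replicate 2, and all of these have close paralogs, so the split of counts among them is uncertain. Of 19 integrin and adhesion genes 12 rose (12 to 14), 3 fell (1 to 5) and 4 did not pass the test (median 1.41). ITGB7, a beta chain of gut-homing integrins, rose from 1.099 and 0.685 to 23.6 and 23.7 CPM. CD44, the hyaluronan receptor, fell from 270.2 and 327 to 226 and 222 CPM, with 544 and 530.2 under Corin alone and 186 and 182 under ATRA alone. ITGA4, an integrin alpha chain, fell from 698 and 818 to 606 and 604 CPM. ITGAE, another alpha chain, fell from 10.99 and 9.56 to 7.95 and 6.99 CPM. Of the 6 subunits of the phagocyte NADPH oxidase, 3 rose (2 to 6), among them CYBB as given above and the cytosolic NCF1. NCF1 rose from 0.636 and 0.184 to 1.93 and 1.65 CPM. NCF1 has near-identical pseudogene copies and its counts are uncertain. Here the call was lost under 5 of 16 alternative settings for ITGA4, 2 for ITGAE and 1 for NCF1.

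Granule genes moved in both directions, at shares near those of all genes. Of 12 primary granule and promyelocyte genes, 4 rose (3 to 4), 3 fell (3 to 7) and 5 did not pass the test (median -0.31), against 24.7% higher and 22.0% lower over all genes. MPO, myeloperoxidase, the most abundant of them per length, stood at 3652 and 2619.9 CPM in DMSO and 2373 and 2454 with both agents (adjusted p = 0.0513). ELANE, neutrophil elastase, was at 48.9 and 20.7 in DMSO and 18.98 and 20.7 with both, and neither passed the test. The DMSO libraries themselves differed widely in ELANE and in PRSS57, the latter at 49.3 and 14.7 CPM. PRTN3, proteinase 3, rose from 10.7 and 5.19 to 62.2 and 69.7 CPM (log2 fold change 3.06 ± 0.28, adjusted p = 0.000104), with 27.4 and 32.2 in ATRA and 13.4 and 12.3 in Corin. The log2 fold change of PRTN3 was 3.66 without DMSO replicate 1 and 2.63 without replicate 2. CFD, complement factor D, rose from 8.88 and 5.24 to 31.3 and 35.3 CPM. AZU1, azurocidin, rose from 12.6 and 5.63 to 19.5 and 24.4 CPM. RETN, resistin, rose from 2.81 and 2.396 to 5.298 and 5.07 CPM. The DMSO pair differed from each other in CFD and AZU1 as well, with the treated pair above both. MS4A3, a marker of granulocyte and monocyte progenitors, fell from 9.11 and 9.24 to 5.36 and 6.24 CPM. RNASE3, eosinophil cationic protein, fell from 4.19 and 4.397 to 1.31 and 1.02 CPM. CTSG, cathepsin G, was at 12.6 and 9.08 in DMSO and 8.601 and 9.69 with both agents and did not pass. Of 18 late neutrophil genes 6 could be tested and 4 rose (4 to 5), among them 2 chemoattractant receptors. CXCR2, a receptor of interleukin 8, rose from 3.15 and 4.27 to 13 and 11.7 CPM. FPR2, a formyl peptide receptor, rose from 1.65 and 2.08 to 4.36 and 3.99 CPM. The secondary and tertiary granule genes LCN2, MMP8, CEACAM8, ARG1 and PGLYRP1 had 0 counts in all 8 libraries. In this list, the call was lost under 2 of 16 alternative settings for AZU1.

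Genes of eosinophils, basophils and mast cells also moved in both directions, at shares close to the 24.7% higher and 22.0% lower of all genes: of 18, 6 rose (6 to 7), 5 fell (4 to 6) and 7 did not pass the test (median -0.09). The granule protein PRG2 fell, as above. RNASE2, the eosinophil-derived neurotoxin, fell from 137 and 128 to 44.2 and 42.6 CPM. EPX, eosinophil peroxidase, fell from 9.46 and 6.69 to 3.802 and 3.15 CPM. CPA3, the mast cell carboxypeptidase, fell from 9.28 and 10.01 to 3.24 and 3.75 CPM. CPA3 stood at 1.35 and 1.41 with ATRA and 24.2 and 25.9 with Corin, so the 2 agents by themselves lay on opposite sides of DMSO. Receptors were among the genes that rose. CCR3, the eotaxin receptor, had 2 counts in DMSO and 162 with both agents, an 89.8-fold ratio after scaling (95% counting interval 24.5 to 748). SIGLEC6, a sialic acid receptor of mast cells, rose from 6.28 and 6.77 to 56.5 and 56.9 CPM (log2 fold change 3.12 ± 0.08). HPGDS, a prostaglandin D synthase, rose from 0.665 and 0.948 to 4.61 and 4.77 CPM. FCER1A, the IgE receptor chain, rose from 0.839 and 0.7899 to 3.86 and 3.93 CPM.

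Genes of stem and progenitor cells were lower on balance. Of 16 tested, 4 rose (4 to 4), 9 fell (7 to 9) and 3 did not pass the test, with a median log2 fold change of -0.40. The share called lower was 22.0% of all genes, but 34.3% of those from 10 to 100 CPM and 50.8% of those above. All members named below except CD34 stood above 10 CPM in DMSO. CDK6, the G1 kinase that holds leukaemic progenitors in cycle, fell from 1357 and 1786 to 658 and 634 CPM (log2 fold change -1.28 ± 0.11, adjusted p = 9.19e-05). It stood at 1121 and 1064 with ATRA and 1514 and 1465 with Corin. Each single agent thus left CDK6 above the level with both, by 0.76 and 1.2 on the log2 scale. WT1, a zinc finger factor common in leukaemia, fell from 27.7 and 30.1 to 11.9 and 11.2 CPM. LMO2, a bridge protein of haematopoietic factors, fell from 99.2 and 87.7 to 44.4 and 45.3 CPM. KIT, the stem cell factor receptor, fell from 419 and 459 to 301 and 300.3 CPM. SOX4, a factor of immature blood cells, fell from 189.9 and 223 to 146 and 143 CPM, with 325 and 306 under Corin alone. MYC, a driver of growth, fell from 447 and 383 to 291 and 305 CPM (log2 fold change -0.48 ± 0.08). NPM1, a nucleolar chaperone, fell from 1670.5 and 1717 to 1435 and 1406 CPM. FLT3, a growth factor receptor of progenitors, fell from 27.2 and 28.1 to 19.5 and 23.2 CPM. MYB, a factor of immature blood cells, rose from 548 and 605 to 774 and 758 CPM. ERG, an ETS factor of stem cells, rose from 73.9 and 76.2 to 129 and 127 CPM. Both stood below Corin alone, which gave 939 and 913 for MYB and 174 and 181 for ERG, and both tests against Corin passed. CD34 was at 0.2603 and 0.237 CPM in DMSO and 0.218 and 0.15 with both agents, with 1.85 and 1.88 under Corin. The log2 difference of both agents from Corin in CD34 was -3.32 ± 0.36 (adjusted p = 0.00109). 11 of the 16 were lower with both agents than with Corin alone, against 5.60% of all genes. The call was lost under 4 of 16 alternative settings for FLT3 and 2 for NPM1.

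Of 30 erythroid and megakaryocyte genes 9 could be tested, and 4 rose (3 to 4), 3 fell (2 to 3) and 2 did not pass the test. Over all genes 24.7% were called higher and 22.0% lower. TFRC, the transferrin receptor, fell from 2369.9 and 2519 to 1022 and 1010.5 CPM (log2 fold change -1.27 ± 0.05, adjusted p = 2.23e-06), and Corin alone gave 1066 and 1042. KLF1, the erythroid factor, fell from 2.89 and 1.97 to 1.06 and 0.8401 CPM. TAL1, a factor of erythroid and stem cells, fell from 36.99 and 35.5 to 26.2 and 25.5 CPM. In the other direction, the platelet integrin chain ITGA2B rose from 12.3 and 7.11 to 33.3 and 32.2 CPM. NFE2, a megakaryocyte factor, rose from 31.8 and 22.1 to 47.2 and 49.4 CPM. EPOR, the erythropoietin receptor, rose from 4.57 and 2.61 to 7.98 and 6.96 CPM. The globin genes HBB, HBA2, HBG1, HBG2 and HBD, as well as ALAS2 and PF4, had 0 counts in all 8 libraries. A call was lost under 1 of 16 alternative settings for EPOR and 1 for KLF1.

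Among 29 myeloid transcription factors tested, 11 rose (10 to 15), 6 fell (5 to 8) and 12 did not pass the test (median 0.12). Over all genes 24.7% were called higher and 22.0% lower. The C/EBP factors of granulocytes and monocytes diverged. CEBPB, induced in emergency granulopoiesis, rose from 5.21 and 4.34 to 18.9 and 20.8 CPM (log2 fold change 2.06 ± 0.14, adjusted p = 2.32e-05). CEBPA, needed to form granulocyte and monocyte progenitors, rose from 9.63 and 7.003 to 26.1 and 23.6 CPM (log2 fold change 1.58 ± 0.16). Both lay above all libraries of either agent alone, and all 4 tests passed. CEBPD, another member, fell from 5.003 and 6.69 to 3.49 and 3.36 CPM. SPI1, which encodes PU.1, stood at 25.1 and 14.1 CPM in DMSO and 28.2 and 29.2 with both agents and did not pass (adjusted p = 0.0806). The inhibitors of basic helix-loop-helix factors rose. ID1 rose from 5.49 and 3.98 to 24.2 and 26.6 CPM. ID2 rose from 19.7 and 21.1 to 42.6 and 41.8 CPM. ID3 rose from 0.174 and 0.158 to 4.02 and 3.93 CPM. In all 3 the treated libraries lay above both DMSO libraries. BHLHE40, a repressor induced by stress and cytokines, rose from 37.8 and 36.1 to 118 and 124 CPM, with 68.3 and 70.8 in ATRA and 33.3 and 31.2 in Corin. Of the RUNX genes, RUNX3 rose from 28.6 and 28.4 to 43.1 and 44.7 CPM and RUNX2 fell from 45.5 and 70.5 to 33.3 and 32.01. RUNX1, whose counts include reads of the fusion transcript, was at 118 and 159 in DMSO and 156 and 143 with both agents, and the groups overlapped. CBFB, the shared cofactor of RUNX proteins, fell from 121 and 154 to 83.5 and 82.7 CPM (log2 fold change -0.73 ± 0.11). The AP-1 genes parted, FOS falling from 9.92 and 8.98 to 5.83 and 4.86 CPM and JUN rising from 2.23 and 1.97 to 6.14 and 5.46. The zinc finger factor KLF6 fell by 0.60 on the log2 scale, and the repressors PRDM1, NFIL3 and BCL6 rose by 1.37, 0.99 and 0.91. ZEB2, at 325 and 429 CPM in DMSO and 333 and 310.2 with both agents, did not pass. MAF, a factor of macrophages, had 0 counts in all 8 libraries. Significance was lost under 5 of 16 alternative settings for BCL6 and 3 for CEBPD.

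Antigen presentation genes of class II rose in 8 of 9 cases (8 to 10), with a median of 1.13, and the remaining gene did not pass the test. For this list and the next, 24.7% of all genes called higher and 22.0% called lower are the background. CD74, the invariant chain, went from 112 and 88.8 to 218 and 221 CPM (log2 fold change 1.13 ± 0.11, adjusted p = 0.000146). HLA-DMA, which loads peptide, rose from 1.301 and 0.685 to 10.04 and 10.4 CPM. HLA-DPA1, an alpha chain, rose from 3.33 and 2.98 to 16.9 and 16.6 CPM. HLA-DPB1, its beta chain, rose from 0.405 and 0.316 to 1.84 and 1.5 CPM. HLA genes are similar to each other, so their counts are uncertain. Against Corin alone 1 of the 9 passed the test, as did 10.4% of all genes. CD74 differed from Corin by 0.02 ± 0.11 on the log2 scale (adjusted p = 0.911). Of 21 interferon-stimulated genes, 12 rose (10 to 13), 3 fell (2 to 3) and 6 did not pass the test (median 0.71). The summed level of this list did not rise, at 569 and 580 CPM in DMSO and 525 and 516 with both agents. BST2, tetherin, rose from 2.23 and 1.13 to 43.3 and 45.6 CPM. OAS3, a sensor of double-stranded RNA, rose from 0.434 and 0.316 to 4.36 and 3.93 CPM. IFIT2, which binds viral RNA, rose from 1.91 and 2.47 to 13.6 and 13.3 CPM. MX2, an antiviral GTPase, rose from 0.492 and 0.421 to 2.52 and 1.8 CPM. XAF1, an antagonist of XIAP, fell from 16.02 and 18.5 to 9.69 and 10.4 CPM. IFIH1, the RNA sensor MDA5, fell from 16.98 and 21.3 to 15.1 and 15.3 CPM. Here the call was lost under 12 of 16 alternative settings for IFIH1.

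Of 18 chemokine and cytokine genes with their receptors, 12 rose (10 to 14), 1 fell (1 to 1) and 5 did not pass the test (median 1.18). For this list and the next, the background is 24.7% of all genes called higher and 22.0% lower. CCR1, a receptor of inflammatory chemokines, rose from 1.53 and 0.632 to 6.01 and 5.34 CPM. Of 21 cytokine receptors and feedback genes of STAT5, the factor that GM-CSF activates, 10 rose (7 to 12), 3 fell (1 to 7) and 8 did not pass the test (median 0.14). SOCS3, a feedback inhibitor of cytokine signalling, stood at 31.6 and 25.1 CPM in DMSO, 67.1 and 74.8 with ATRA, 28.3 and 25.8 with Corin and 108 and 121 with both agents (log2 fold change 2.02 ± 0.12, adjusted p = 1.52e-05). The SOCS3 level with both agents lay above all libraries of either alone. TNFRSF1B, TNF receptor 2, rose from 10.2 and 8.35 to 29.01 and 31.8 CPM. IL10RA, the interleukin 10 receptor chain, rose from 0.752 and 0.737 to 6.45 and 5.37 CPM. PIM1, a STAT5 target kinase, fell from 383 and 342 to 305 and 316 CPM. In this list, the call was lost under 6 of 16 alternative settings for PIM1.

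**Figure D5:**
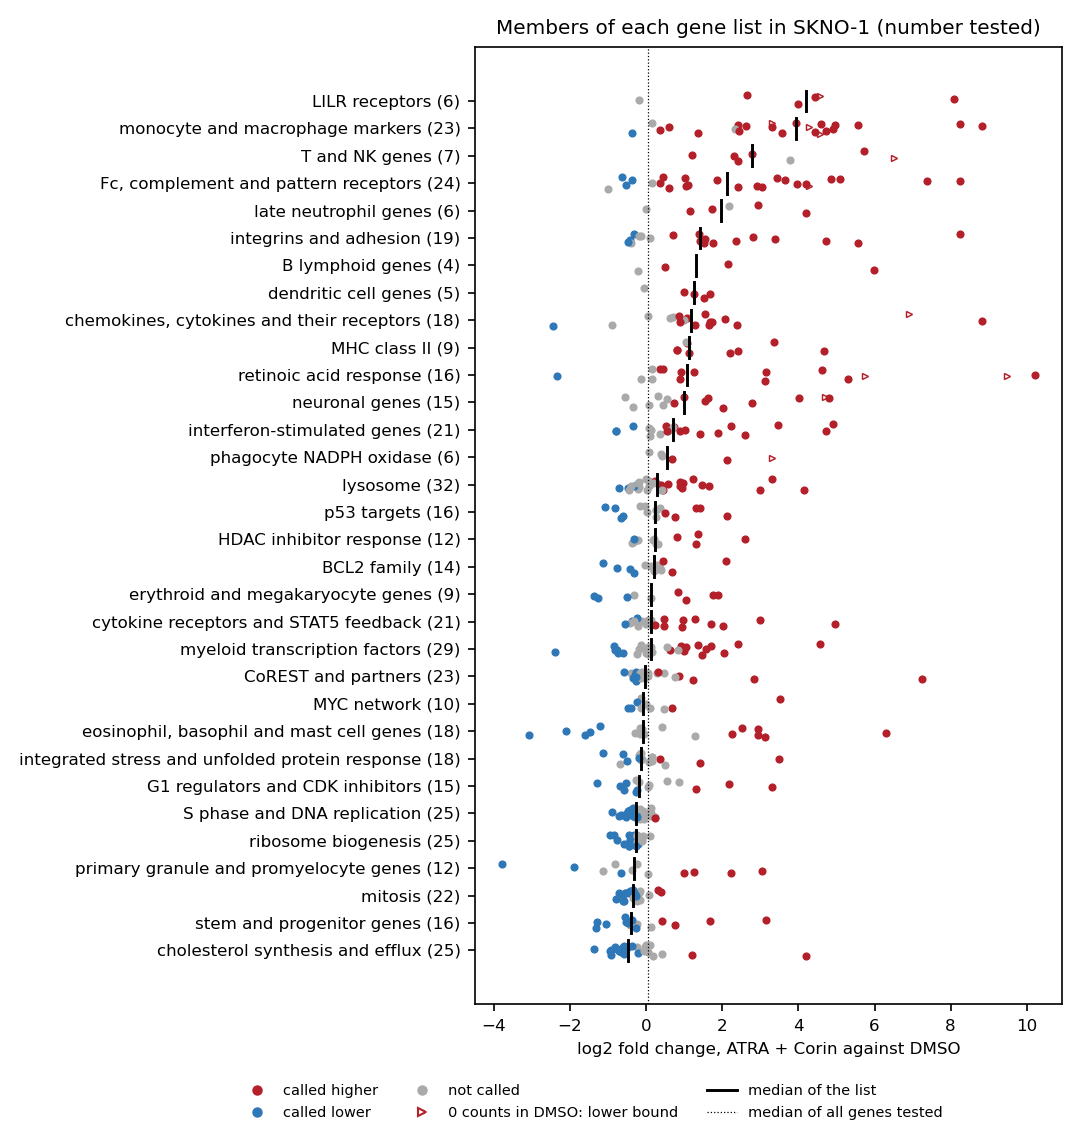
Log2 fold change of both agents against DMSO for each tested member of the 32 gene lists, with the number tested in brackets, ordered by the list median (black bar). The dotted line is the median over all 17479 genes, 0.055; the monocyte and LILR lists lie at the top, with medians of 3.94 and 4.21, and the cholesterol and stem cell lists at the bottom, with -0.48 and -0.40.

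Genes of cell division and growth were lower by modest amounts. Of 22 mitosis genes, 2 rose (1 to 3), 14 fell (11 to 18) and 6 did not pass the test (median -0.33). Of 25 genes of S phase and DNA replication, 1 rose (0 to 7), 14 fell (9 to 19) and 10 did not pass the test (median -0.26). The share called lower among all genes was 22.0%, and 50.8% among those at 100 CPM or more. The S phase share lies near the latter, and the part of level was not tested. Against Corin alone 7 of the 25 S phase genes were higher with both agents and 0 lower. Of the 22 mitosis genes 0 were higher than with Corin and 5 lower, where 4.82 and 5.60% of all genes were. CCNB1, cyclin B1, fell from 187 and 188 to 108 and 109.7 CPM (log2 fold change -0.78 ± 0.05, adjusted p = 2.01e-05). CCNA2, cyclin A2, fell from 124 and 146 to 82.4 and 82.7 CPM. BUB1, a spindle checkpoint kinase, fell from 186 and 188 to 122 and 119 CPM. KIF20A, a kinesin of cytokinesis, fell from 132 and 124 to 83.6 and 82.1 CPM. NUSAP1, a spindle protein of the same list, rose from 191 and 197 to 241 and 246 CPM. AURKB, a mitotic kinase, rose from 18.6 and 14.2 to 21.6 and 21.8 CPM. CCNE1, the cyclin of S phase entry, fell from 32.6 and 26.6 to 15.4 and 16.5 CPM. CCNE2, its paralog, fell from 42.3 and 48.9 to 28.05 and 27.7 CPM. TYMS, thymidylate synthase, fell from 110.4 and 133 to 77.8 and 76.2 CPM. MCM6, a helicase subunit, fell from 232 and 244 to 167 and 162 CPM. POLE, a polymerase subunit, rose from 247 and 216 to 271 and 277 CPM. Without DMSO replicate 1, 7 of the S phase genes rose. The largest fall in either list was that of CCNE1, -0.89 on the log2 scale. Of 15 G1 regulators, 3 rose (3 to 5), 6 fell (3 to 7) and 6 did not pass the test. CDKN2D, an inhibitor of CDK4 and CDK6, rose from 2.31 and 1.71 to 8.88 and 9.45 CPM. CDKN1A, the inhibitor p21, rose from 4.74 and 4.79 to 11.4 and 12.4 CPM. The inhibitors CDKN2C and CDKN2A fell by 0.57 and 0.69 on the log2 scale, and the kinase CDK4 fell from 240 and 200 to 155 and 151 CPM. CDKN1A was at 20.3 and 17.1 with Corin alone and 2.34 and 1.84 with ATRA alone, on opposite sides of DMSO. The call was lost under 7 of 16 alternative settings for AURKB, 3 for POLE and 3 for CDKN2A.

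Ribosome biogenesis genes fell in 17 of 25 cases (12 to 25), with a median of -0.27, and the other 8 did not pass, with 0 to 3 rises over the alternative settings. The share called lower was 22.0% of all genes, 34.3% of those from 10 to 100 CPM and 50.8% of those above. LYAR, a nucleolar factor, fell from 85.9 and 84.3 to 44.9 and 43.1 CPM (log2 fold change -0.95 ± 0.06, adjusted p = 2.32e-05). UTP20, of the small-subunit processome, fell from 94.2 and 102 to 53.6 and 55.1 CPM. GAR1, of the snoRNPs that modify rRNA, fell from 31.5 and 36.4 to 19.5 and 20.2 CPM. RRN3, a factor of RNA polymerase I, fell from 60.2 and 60.2 to 39.3 and 41.3 CPM. Against Corin alone 2 of the 25 were lower, as were 5.60% of all genes. Of 10 genes of the MYC network 2 rose (1 to 4) and 3 fell (2 to 4), MYC itself as above. MLX, a dimer partner in the network, fell from 68.97 and 61.3 to 48.8 and 49.7 CPM. MNT, an antagonist of MYC, rose from 3.99 and 3.53 to 6.92 and 5.22 CPM. A call was lost under 4 of 16 alternative settings for MNT.

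Cholesterol genes were lower on balance, and the 2 exporters among them rose. Of 25 cholesterol genes, 2 rose (2 to 7), 15 fell (13 to 18) and 8 did not pass the test, with a median of -0.48. The share called lower was 22.0% of all genes and 50.8% of those at 100 CPM or more. Without DMSO replicate 1, 7 of the list rose and 14 fell. The 15 that fell comprise 14 enzymes of synthesis and INSIG1, which restrains the regulator of the pathway and is named here after its value was seen. HMGCS1, an early enzyme of the pathway, fell from 375 and 399 to 148 and 153 CPM (log2 fold change -1.36 ± 0.06, adjusted p = 2.58e-06). LSS, which closes the sterol rings, fell from 89.6 and 64.7 to 39.6 and 40.2 CPM. NSDHL, a later enzyme, fell from 31.1 and 28.9 to 15.7 and 15.8 CPM. CYP51A1, lanosterol demethylase, fell from 325 and 344 to 176 and 176 CPM. ABCA1 stood at 7.52 and 11.3 CPM in DMSO, 75.6 and 76.1 with ATRA, 27.6 and 28.1 with Corin and 178 and 167 with both (log2 fold change 4.19 ± 0.16, adjusted p = 1.7e-06). ABCG1, the second exporter, rose from 18.1 and 15.6 to 38.99 and 39.2 CPM. HMGCS1 stood at 139 and 136 with Corin alone, and the log2 difference of both agents from Corin was 0.13 ± 0.06 (adjusted p = 0.166). Against Corin alone 6 of the 25 cholesterol genes were higher with both agents and 1 lower, where 4.82 and 5.60% of all genes were. Of 32 lysosome genes, 15 rose (12 to 20), 3 fell (2 to 10) and 14 did not pass the test (median 0.28). Over all genes 24.7% were called higher and 22.0% lower. GRN, progranulin, rose from 42.2 and 22.1 to 258 and 255 CPM (log2 fold change 3.0 ± 0.28). CTSH, a cathepsin, rose from 20.9 and 16.98 to 59.4 and 59.9 CPM. CTSL, another cathepsin, rose from 3.38 and 3.05 to 8.85 and 9.001 CPM. CD63, a tetraspanin of late endosomes, fell from 184 and 172 to 110.4 and 108 CPM. GLA, alpha-galactosidase, fell from 82.5 and 74.96 to 59.2 and 55.1 CPM. LAMP1, a membrane glycoprotein of lysosomes, fell from 171 and 138 to 121 and 126 CPM. Significance was lost under 5 of 16 alternative settings for LAMP1.

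Genes of survival moved in both directions, at shares near those of all genes. Of 14 BCL2 family genes, 3 rose (1 to 7), 4 fell (4 to 5) and 7 did not pass the test, against 24.7% higher and 22.0% lower over all genes. Among those that fell were 3 survival genes. BCL2, the founding member, fell from 101 and 125 to 53.2 and 49.3 CPM (log2 fold change -1.14 ± 0.10, adjusted p = 9.04e-05). BCL2L1, which encodes BCL-XL, fell from 60.99 and 46.7 to 30.8 and 32.6 CPM. MCL1, a short-lived relative, fell from 219 and 232 to 181 and 182 CPM. The death-promoting BMF rose from 4.77 and 4.29 to 19.3 and 19.4 CPM, and Corin alone gave 19.8 and 18.98. BIK, of the same kind, rose from 6.45 and 3.95 to 8.51 and 8.19 CPM. BCL2L11, also death-promoting, rose from 32.6 and 41.8 to 49.1 and 51.5 CPM. BID, another death-promoting member, fell from 69.3 and 60.2 to 47.5 and 49.3 CPM. Of 16 p53 targets, 5 rose (3 to 8), 4 fell (4 to 5) and 7 did not pass the test. TNFRSF10B, a TRAIL receptor, rose from 10.4 and 9.29 to 41.6 and 44.9 CPM. SESN2, a sestrin that restrains mTORC1, rose from 4.22 and 3.03 to 9.66 and 9.69 CPM. FDXR, ferredoxin reductase, rose from 4.95 and 2.98 to 6.202 and 7.201 CPM. MDM2, the ligase that degrades p53, fell from 155 and 188 to 112 and 114 CPM. BTG2, an antiproliferative factor, fell from 17.1 and 15.3 to 7.98 and 7.53 CPM. RRM2B, a ribonucleotide reductase subunit, fell from 84.7 and 107 to 51.9 and 57.9 CPM. AEN, a nuclease, fell from 43.2 and 33.8 to 23.9 and 24.99 CPM. Significance was lost under 7 of 16 alternative settings for BIK, 5 for FDXR and 3 for BCL2L11.

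Stress genes moved little as a group, where 24.7% of all genes were called higher and 22.0% lower. Of 18 genes of the integrated stress and unfolded protein responses, 3 rose (3 to 6), 4 fell (1 to 8) and 11 did not pass the test. Without DMSO replicate 1, 6 rose and 8 fell, and 1 fell without the second library with both agents. DDIT4, an inhibitor of mTORC1, rose from 2.81 and 2.76 to 30.5 and 32.5 CPM (log2 fold change 3.5 ± 0.13, adjusted p = 1.47e-06). ASNS, asparagine synthetase, rose from 28.6 and 27.7 to 35.7 and 36.9 CPM. HSPA5, the chaperone BiP, fell from 354 and 392 to 176 and 168 CPM (log2 fold change -1.12 ± 0.07). DNAJB9, a cochaperone of BiP, fell from 13.9 and 18.1 to 11.2 and 9.78 CPM. TRIB3, a pseudokinase of the stress response, fell from 33.9 and 27.9 to 22.2 and 21.5 CPM. Of 12 genes known to answer to deacetylase inhibitors, 4 rose (4 to 8), 1 fell (0 to 4) and 7 did not pass the test. The background is again 24.7% higher and 22.0% lower. SAT1, which acetylates polyamines, rose from 41.6 and 39.6 to 105 and 104 CPM. HEXIM1, an inhibitor of P-TEFb, rose from 15.96 and 18.1 to 29.9 and 30.2 CPM. TXNIP, an inhibitor of thioredoxin, fell from 217 and 209 to 174 and 171 CPM. Significance was lost under 2 of 16 alternative settings for DNAJB9, 2 for TXNIP and 1 for TRIB3.

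Genes of other tissues and lineages also rose, mostly at low levels, where 30.6 to 36.5% of all genes up to 10 CPM rose. Of genes from 10 to 100 CPM 17.2% rose. Of 33 neuronal genes 15 could be tested, and 9 rose (6 to 10). Their summed level was 33.5 to 45.5 CPM in DMSO and 45.5 to 48 with both agents. In 11 of the list, SNAP25 and STMN2 among them, all 8 libraries had 0 counts. KIF5A, a neuronal kinesin, rose from 0.0868 and 0.07899 to 2.34 and 2.52 CPM. INA, an intermediate filament, rose from 1.91 and 2.71 to 5.02 and 4.23 CPM. GAD1, which makes GABA, rose from 1.04 and 1.0 to 1.81 and 1.59 CPM. Of 11 B lymphoid genes 4 could be tested and 3 rose (2 to 3). CD22, an inhibitory receptor of B cells, rose from 0.405 and 0.105 to 16.3 and 15.99 CPM (log2 fold change 6.0 ± 0.43). The log2 fold change of CD22 was 7.21 without DMSO replicate 1 and 5.32 without replicate 2. Corin alone gave 13.7 and 13.1 for CD22. CD79A, a chain of the B cell receptor complex, rose from 0.549 and 0.5002 to 2.52 and 2.13 CPM. PAX5, a B cell factor known to be transcribed in this leukaemia subtype, rose from 4.42 and 4.002 to 6.11 and 5.82 CPM. The defining B cell genes MS4A1, EBF1 and IGHM had 0 counts in all 8 libraries, and the list summed to 24 to 34.3 CPM in DMSO and 44.3 to 46.5 with both agents. Of 15 T and NK genes 7 could be tested and 6 rose (5 to 6), with a summed level of 1.0 to 1.2 CPM in DMSO and 10.2 to 10.6 with both. PRF1, perforin, had 0 counts in DMSO and 3.55 and 3.93 CPM with both agents, at least 90.6-fold higher, against 0.27 and 0.216 with ATRA and 0.0855 and 0.0294 with Corin. CD7 had 3 counts in DMSO and 157 with both agents, a 58.05-fold ratio after scaling (95% counting interval 19.5 to 284). The T and NK genes CD3E, CD3G, CD5 and GZMB had 0 counts in all 8 libraries. Of 14 dendritic cell genes 5 could be tested and 4 rose (2 to 5). ZBTB46, a factor of conventional dendritic cells, rose from 16.5 and 8.93 to 28.8 and 31.4 CPM. LAMP3, a lysosomal protein of mature dendritic cells, rose from 2.11 and 2.74 to 4.86 and 4.801 CPM. CD1A, XCR1 and CLEC4C had 0 counts throughout. Here the call was lost under 6 of 16 alternative settings for GAD1 and 5 for PAX5.

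Against the single agents, both agents together differed from Corin alone in 1822 genes (10.4%), 843 higher and 979 lower, and from ATRA alone in 7828 (44.8%), 4015 higher and 3813 lower. The count against Corin is sensitive to which libraries set the spread: it was 7431 when only those 4 libraries were fitted, 7102 and 7162 without DMSO replicate 1 and 2, and 399 to 919 when a library of another group was left out. These comparisons share the libraries with both agents, so their gene lists are not set against each other. Among genes named above, CST7, SELP, THBD, PRAM1, PRTN3, CEBPB, ABCA1, SOCS3 and CDK6 were beyond both single agents with both tests passed, in the direction of the change from DMSO. CD86, VCAN, ERG, MYB and FCGR2B were higher than in ATRA and lower than in Corin, again with both tests passed. Tests of named genes against a single agent were not repeated under the alternative settings. These treatments also differed in how gene levels followed GC content. The correlation with GC content was 0.387 and 0.42 in the libraries with both agents. It was -0.284 and -0.259 with Corin alone and -0.144 and 0.041 with ATRA alone. The part of this difference in the calls of these genes was not tested. The authors' deposited table of both agents against DMSO holds 25542 genes with 5175 called by DESeq2, 2486 higher and 2689 lower. Of the 17475 genes in both that table and the present test, 5092 were called by both, all with the same sign. Another 3068 were called here only and 30 in the authors' deposited table only.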

How the data were processed

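RNA of SKNO-1 cells was sequenced as stranded total RNA, per the labels' protocols. The submitters' processing notes name Trimmomatic, STAR, RSEM, DESeq2 and the build hg38, and how they were used, strand included, is not given in the sources used here. The authors deposited RSEM estimated counts per gene for each library, the main input here, and TPM values per gene, which were used only to compare levels between genes. The authors' deposited table of the comparison gives log2 fold changes and adjusted p-values from DESeq2, per the file headers.

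Estimated counts were rounded to whole numbers and tested with edgeR 4.0.16 (R 4.3.3) after its default filter on low counts and TMM scaling. The quasi-likelihood fit took the 8 SKNO-1 libraries, 2 per treatment, so that all treatments share a single estimate of the spread, with Benjamini-Hochberg adjustment over 17479 genes and a threshold of 0.05. The DMSO libraries stood further apart than those of the other groups, so this shared spread can understate errors and p-values against DMSO. CPM values use TMM-scaled totals, and an error after ± is the standard error of a log2 difference. Folds against groups with 0 counts use a floor of 3 counts over the group, ratios from 1 to 3 counts carry exact 95% intervals, and both cover counting error only. The code of the fit was tried on simulated counts with the same spread in every group and no GC trend. The DMSO pair differs from that setting, so nothing is read from the trial. Genes named are the 12 largest rises and falls at 5 CPM or more, up to 4 called genes in each direction of each list at 1 CPM or more, and any member of the retinoic acid, CoREST, monocyte, granule, stem cell and transcription factor lists. Some members of these lists are counted in their totals but are not reported here by name. The comparison, the genes and the lists were chosen with earlier results of these data known. Annotation was GENCODE 44, in which 60261 of 60603 genes were matched.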

Additional observations from a re-analysis of the deposited data

How the results depend on the processing

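Both agents against DMSO gave 8160 genes called, and between 5497 and 9308 under the alternatives that keep all libraries of the compared groups. Only the lower count moved by more than 1.5 times among these, to 2375 when just the 4 libraries compared were fitted. With a single library left out, the total ranged from 5434 (without the second library with both agents) to 10971 (without DMSO replicate 1) and the lower count from 2437 to 5044. In the single-library fits the lone sample is assumed to vary like the other groups. DESeq2 gave 3496 higher and 3963 lower. The count of both agents against Corin, 1822, was 4238 with no filter on low counts, 7431 with only the 4 libraries compared, 1066 with a replicate block, 2866 with the GC trend removed, and 399 to 7162 with a library left out. Against ATRA the count, 7828, was 4961 to 10738 with a library left out. Replicate numbers did not pair the libraries: deviations of same-numbered DMSO and combination libraries correlated at -0.18, and the labels name no shared day or batch. The replicate block gave 7560 calls against DMSO, and a block with the DMSO numbers crossed, chosen after seeing the data, gave 8211.

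Of the 204 named genes called against DMSO, 168 stayed called under all 16 alternatives and 36 lost the call in at least 1. A further 15 named genes were not called, and 14 of them passed the test under at least 1 alternative. Among these were MPO under 7, ELANE under 5, and PRSS57 and SPI1 under 4 each. NRIP1 was called in the opposite direction under 2. A gene that did not pass is thus not shown to be unchanged. The direction turned in 6 named genes, none of them among those called. The log2 fold change of NRIP1, -0.12, became 0.14 with the GC trend removed, 0.13 with the replicate block added to that step and 0.01 without DMSO replicate 2. It was 0.15 and as low as -0.02 in RXRB, 0.15 and -0.25 in CEBPE, 0.11 and -0.09 in RUNX1 and 0.12 and -0.09 in RUNX1T1, and -0.23 and as high as 0.03 in ZEB2. The cause was not tested. Depth limits the markers near 0: groups with 0 counts allow up to 3 counts over the pair, so the folds of genes silent in DMSO are lower bounds.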

Other observations

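The other motifs searched in the RefSeq promoters (250 bases before to 50 after the start, GRCh38.p14) are given as shares, with no test. The core GGAAGT of ETS factors such as PU.1, on either strand, was in 28.1% of the 10657 promoters of genes tested, in 20.9% of the 1532 of genes that rose by 1 or more in log2 fold change and in 22.2% of the 171 of genes that fell by as much. The E-box CACGTG was in 10.1%, 6.79% and 9.94% of these sets. The AP-1 motif TGANTCA was in 4.55%, 6.98% and 4.68%. A direct repeat of retinoic acid receptor half-sites with 2 bases between them was in 4 promoters of genes tested, and it was in no promoter of the sets that rose or fell by 1 or more.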
